A study of Mus musculus with 24 samples.

Results

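The AP-1 transcription factor genes are the 10 genes Fos, Fosb, Fosl1, Fosl2, Jun, Junb, Jund, Atf3, Batf and Jdp2, chosen by name and found by their Ensembl gene identifiers among the 55357 genes of the count table. All 10 were found, and all 10 had enough reads to be tested. They were followed in 24 RNA-seq libraries of macrophages grown from the bone marrow of wild-type C57BL/6J mice aged 8 to 12 weeks, in medium with 10% L929 cell supernatant as the source of M-CSF, the growth factor that turns marrow precursors into macrophages. The cultures received both dexamethasone, a synthetic glucocorticoid, at 100 nM and lipopolysaccharide (LPS), a bacterial wall component that activates macrophages through Toll-like receptor signalling, at 100 ng in a volume that the labels do not give, or LPS alone, or dexamethasone alone, or neither (control). Each treatment was sampled at 4 h and at 24 h, with 3 libraries per treatment and time. Whether the 3 libraries of a group came from separate mice or separate cultures is not in the labels, so the p-values measure the spread between these libraries, which may be technical. The library totals were 18326206 to 27908164 counts.

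AP-1 is a dimer of basic leucine zipper (bZIP) proteins. The Jun proteins (Jun, Junb, Jund) pair with each other or with a Fos protein (Fos, Fosb, Fosl1, Fosl2), the Fos proteins do not pair with themselves, and the smaller relatives Atf3, Batf and Jdp2 join mainly with Jun proteins. Jun with Fos generally activates transcription, while Atf3, Batf and Jdp2 lack the strong activation domains of Fos and are often described as repressors or modulators. In macrophages AP-1 acts with NF-kB on inflammatory genes after LPS, and the glucocorticoid receptor is known both to interfere with AP-1 proteins at such genes and to switch on its own targets. The counts measure messenger RNA, not protein or DNA binding.

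The promoters of 4 members are shown because these genes gave the main patterns: Atf3 and Jdp2, which dexamethasone moved in opposite directions, Fos, whose dexamethasone effect turned round with LPS and time, and Jun, which LPS lowered while Junb rose. Each sequence is the 250 bases before a RefSeq transcript start in build GRCm38.p6, written 5′ to 3′ on the gene's strand. Capitals mark TGACG on either strand (CGTCA on the other), the core of the cAMP response element, which is bound by Atf and CREB proteins, and TGACATCA, the site through which Jun is known to act on its own promoter.
Atf3 (chr1:191183334-191183583, minus strand): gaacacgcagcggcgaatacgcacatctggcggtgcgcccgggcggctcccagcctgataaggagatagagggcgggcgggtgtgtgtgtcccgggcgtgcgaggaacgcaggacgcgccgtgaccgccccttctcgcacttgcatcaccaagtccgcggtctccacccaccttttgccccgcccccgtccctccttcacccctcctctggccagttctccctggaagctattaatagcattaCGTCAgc
Jdp2 (chr12:85599166-85599415, plus strand, one of 3 Jdp2 starts in the table): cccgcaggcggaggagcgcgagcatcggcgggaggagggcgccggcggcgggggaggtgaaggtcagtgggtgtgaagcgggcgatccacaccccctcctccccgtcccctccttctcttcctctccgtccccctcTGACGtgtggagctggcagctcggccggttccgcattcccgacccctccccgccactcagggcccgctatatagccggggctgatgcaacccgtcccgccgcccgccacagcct
Fos (chr12:85473640-85473889, plus strand): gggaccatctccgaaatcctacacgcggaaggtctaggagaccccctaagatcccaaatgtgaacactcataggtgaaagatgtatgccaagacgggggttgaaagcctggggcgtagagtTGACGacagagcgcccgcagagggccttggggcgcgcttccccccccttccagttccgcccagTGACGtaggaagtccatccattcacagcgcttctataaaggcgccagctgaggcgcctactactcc
Jun (chr4:95052223-95052472, minus strand): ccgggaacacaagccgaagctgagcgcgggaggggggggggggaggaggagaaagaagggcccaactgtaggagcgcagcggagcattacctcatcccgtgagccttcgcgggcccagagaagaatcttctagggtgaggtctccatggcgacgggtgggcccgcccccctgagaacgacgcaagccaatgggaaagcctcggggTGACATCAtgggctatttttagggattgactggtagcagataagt
RefSeq windows were matched for 9 of the 10 members (11 windows of 300 bases, from 250 before to 50 after a start), and Fosl1 was not matched. TGACG on either strand was found once each in Atf3 (7 bases before the start), Batf, Fosb, Junb and 1 Jdp2 window, and in Fos at 129 and at 66 bases before the start, against 20.8% of all 32851 windows. The Jdp2 window shown is the one with the match, and the others held none. Which Jdp2 start these cells used was not measured. TGACATCA was found in Jun, 45 bases before the start, and in 3.62% of all windows. A search pattern for NF-kB sites, left in lower case above, was matched in Fos (position -214 from the start), Fosb (-188) and Fosl2 (-182 and -181), against 4.51% of all windows. TATAAA, the TATA box, was found in Fos (position -33) and Junb (position 1), against 13.6%. No member window held TGACTCA, the classical AP-1 site (5.2% of all windows), the full cAMP response element TGACGTCA (1.79%) or AGAACA, an arm of the glucocorticoid response element (19%), each searched on both strands. A match describes the letters in the window and does not show binding.

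Positions in the count table are taken as GRCm39, and its gene models place Fos (chr12:85520664-85524047), Jdp2 (chr12:85645801-85686652) and Batf (chr12:85733443-85755861) in that order on the plus strand of chromosome 12. Junb (chr8:85701113-85705347, minus strand) and Jund (chr8:71151599-71153265, plus strand) are both on chromosome 8. The remaining genes are Atf3 (chr1:190902493-190950236, minus strand), Jun (chr4:94937271-94940459, minus strand), Fosb (chr7:19036621-19043976, minus strand), Fosl1 (chr19:5497575-5505974, plus strand) and Fosl2 (chr5:32293145-32315186, plus strand). Counting was unstranded and left out reads that overlap several genes, so exons shared with a gene on the other strand give no counts. This touched 57.2% of the exon bases of Fosl1 (shared with Ccdc85b), 52.6% of Jund (Gm11175), 7.68% of Jdp2 (Gm47863), 7.52% of Junb (Prdx2) and 7.28% of Jun (Junos). Levels of these genes are therefore uncertain, those of Fosl1 and Jund most.

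Levels are given as CPM (counts scaled to a common library size with edgeR's TMM factors) and per kilobase of exon (RPKM) where genes are set against each other. A gene was called changed at a Benjamini-Hochberg adjusted p under 0.05 over all 14985 tested genes in edgeR's quasi-likelihood test, and changes are log2 fold changes ± standard error (SE). The TMM factors of the LPS libraries at 4 h were 0.679 to 0.705, the lowest of the series, and scaling on library totals alone moved the median change of all genes by -0.77 for LPS against control at 4 h, by -0.2 for the same comparison at 24 h, and by 0.21 for dexamethasone plus LPS against LPS at 4 h. Under that scaling 16.2% of the tested genes were called higher and 65.3% lower for LPS at 4 h, against 34.2% and 38.8% as reported. For LPS at 24 h the split was then 20.5% and 41.9%, against 29.7% and 30.6% as reported, and for dexamethasone plus LPS against LPS at 4 h it was 39.9% and 15.8%, against 23.9% and 25.4%. No called change of an AP-1 gene turned direction with it. The 7 macrophage markers summed to 16302 to 51047 CPM per library, most of it Lyz2 (group means of 11108 to 39727 CPM). Group means were 2294 to 3516 CPM for Csf1r, 1353 to 4923 for Adgre1 and 332 to 1185 for Cd68. At 24 h Adgre1 was higher with LPS than in control libraries (4923 and 1791 CPM) and Cd68 lower (345 and 1185 CPM). Lymphocyte markers summed to at most 2.5 and stromal and endothelial markers to at most 8.42 CPM. Dendritic cell markers summed to at most 21.1, and mast cell and basophil markers to at most 4.56 CPM. The 8 markers of neutrophils and their precursors summed to 78.4 to 123 CPM with dexamethasone plus LPS, 110 to 155 with LPS, 29.8 to 39.9 with dexamethasone and 38.3 to 54.3 CPM in control libraries at 4 h, and to 0.881 to 23.4 CPM in all libraries at 24 h. The defining marker Ly6g was at 0 in 5 of the 8 groups, and the part of these cells in the results was not tested.

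**Figure D1:**
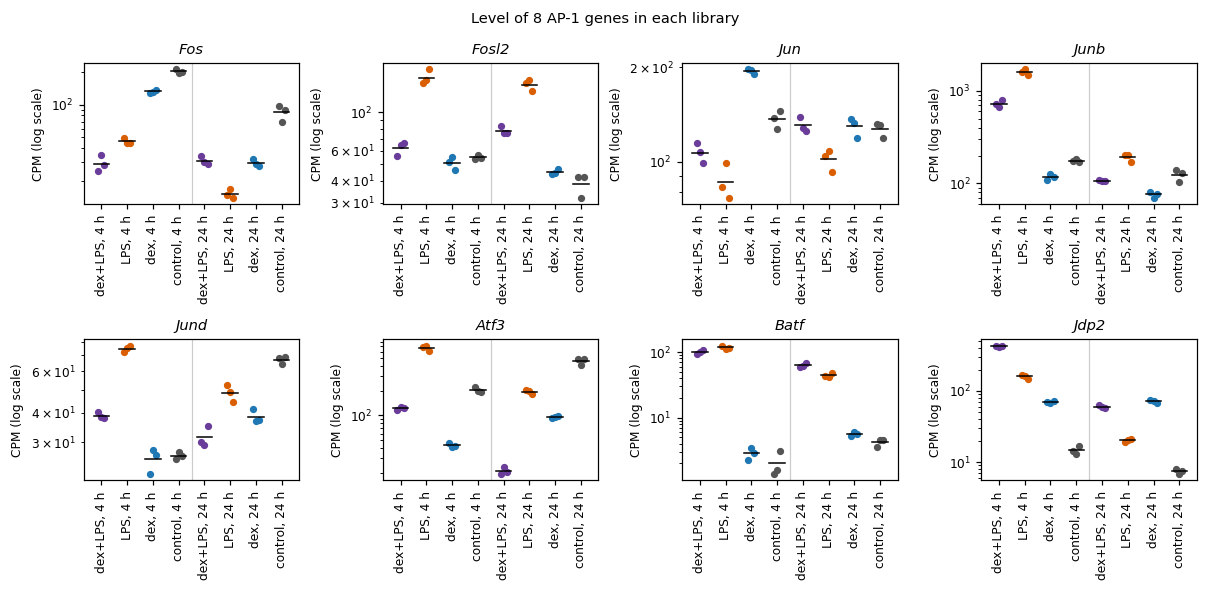
Level of 8 AP-1 genes in each of the 24 libraries, in CPM on a log axis whose range differs between panels. Each point is a library, the bar is the mean of the 3 libraries, and colours mark the treatment. With LPS at 4 h Junb reached 1477 to 1698 CPM, against 169 to 184 CPM in control libraries. At each time, Atf3 is lower and Jdp2 higher with dexamethasone than in the matching libraries without it.

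LPS was called to change all 10 AP-1 genes at 4 h. Junb, Fosl2, Jund, Atf3, Batf and Jdp2 rose, and Fos, Fosb, Fosl1 and Jun fell. All 10 were called, in a comparison in which 72.9% of all tested genes were. The call of the scarce Fosl1 did not hold with DESeq2 or without the filter on low counts. At least 2-fold changes were seen in 9 members, 6 higher and 3 lower, against 17.6% and 21.7% of the tested genes. The median change of the 10 was 1.52, and that of all tested genes was -0.07. In bulk RNA a lower level can come from fewer cells of a type or from less RNA per cell, and these cannot be told apart here.

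Junb, a Jun protein and generally a weaker activator than Jun, had the highest level per exon length of any member in LPS libraries at 4 h (693 ± 48.2 RPKM, SD, n = 3). It was at 1606, 1698 and 1477 CPM with LPS and at 175, 184 and 169 CPM in control libraries, so that the lowest LPS library stood far above the highest control library. The change was 3.18 ± 0.09 (9.06-fold, edgeR adjusted p = 1.3e-19). By 24 h Junb was at 205, 202 and 172 CPM with LPS and at 140, 103 and 129 CPM in control libraries. The groups still did not overlap, and the change was 0.64 ± 0.09 (edgeR adjusted p = 1.3e-06).

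Jun, the founding member of the family, went the other way. At 4 h it was at 83.2, 99 and 76.6 CPM with LPS and at 138, 127 and 145 CPM in control libraries, without overlap, a change of -0.66 ± 0.08 (edgeR adjusted p = 4.2e-09). By 24 h it was at 104, 108 and 93 CPM with LPS and at 132, 131 and 119 CPM in control libraries, again without overlap (-0.33 ± 0.08, edgeR adjusted p = 0.00037). The Jun level varied least among the 8 well expressed members, between group means of 86.3 and 195 CPM. Jund, usually the steadily expressed Jun gene, was at 72, 74.9 and 76.9 CPM with LPS and at 25.5, 27.3 and 26.1 CPM in control libraries at 4 h (1.5 ± 0.08, edgeR adjusted p = 2.8e-19). Its groups had changed sides at 24 h, at 52.2, 48.8 and 44.4 CPM with LPS and at 68.1, 64.2 and 69 CPM in control libraries (-0.47 ± 0.07, edgeR adjusted p = 1.2e-06). Neither pair of Jund groups overlapped.

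Fos, the classical immediate early partner of Jun, was lower with LPS at both times. It was at 49.7, 44.5 and 44.1 CPM with LPS and at 211, 196 and 202 CPM in control libraries at 4 h, a change of -2.14 ± 0.11 (edgeR adjusted p = 2.3e-14). Its 24 h levels were 14.9, 16.7 and 13.9 CPM with LPS and 98.4, 68.8 and 89 CPM in control libraries, a change of -2.49 ± 0.12 (edgeR adjusted p = 1.9e-14). Every LPS library was below every control library at the same time. Sampling began at 4 h, so earlier Fos levels were not measured.

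Fosl2 (Fra-2), a Fos relative without the strong activation domain of Fos, rose instead. At 4 h it was at 147, 153 and 177 CPM with LPS and at 53.7, 56.9 and 54.6 CPM in control libraries (1.53 ± 0.09, edgeR adjusted p = 4.4e-15). In the 24 h libraries it was at 147, 153 and 132 CPM with LPS and at 41.9, 31.9 and 42.1 CPM in control libraries (1.9 ± 0.09, edgeR adjusted p = 1e-16). Its groups were apart at both times, and it was at least 2-fold higher at both, as were Batf and Jdp2. Of all tested genes, 17.6% were called at least 2-fold higher at 4 h and 10.3% at 24 h. The share that was so at both times was not counted.

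Fosb and Fosl1 (Fra-1), the remaining Fos genes, were scarce. Fosb summed to 7 counts over the 3 LPS libraries and to 425 counts over the control libraries at 4 h, and to 15 and 45 counts at 24 h. The changes were -5.3 ± 0.52 (edgeR adjusted p = 1.9e-11) and -1.38 ± 0.56 (edgeR adjusted p = 0.033). The first was -6.45 without LPS replicate 2, and the second was lost without control replicate 1 (-1.18) or 2 (-1.4) or LPS replicate 2 (-1.16) or 3 (-1.25), with edgeR adjusted p of 0.055 to 0.12. Fosl1 summed to 9 counts with LPS and to 43 counts in control libraries at 4 h (-1.7 ± 0.7, edgeR adjusted p = 0.029). That call did not hold without LPS replicate 2 (-1.3, edgeR adjusted p = 0.12), without the filter on low counts (edgeR adjusted p = 0.066) or with DESeq2 (adjusted p = 0.056). At 24 h Fosl1 had 5 counts in LPS libraries and 5 in control libraries, a ratio of 1.14 (95% counting interval 0.263 to 4.97), which says only that no difference was detectable at this depth.

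Batf, which pairs with Jun proteins and is known for its work with IRF factors, gave the largest LPS increase among the members at both times. It was at 126, 113 and 116 CPM with LPS and at 1.37, 1.57 and 3.08 CPM in control libraries at 4 h, a change of 5.93 ± 0.14 (60.8-fold, edgeR adjusted p = 7.8e-27). After 24 h it was at 43.6, 42.2 and 47.9 CPM with LPS and at 3.58, 4.54 and 4.57 CPM in control libraries (3.39 ± 0.13, edgeR adjusted p = 8.3e-21). Both times the groups were far apart.

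Jdp2, a repressor of AP-1 that binds Jun proteins, was also induced. It was at 168, 164 and 148 CPM with LPS and at 14.3, 13.2 and 16.8 CPM in control libraries at 4 h (3.44 ± 0.07, 10.8-fold, edgeR adjusted p = 8.4e-32). At 24 h it was at 19.4, 20.8 and 21.1 CPM with LPS and at 7.92, 6.81 and 7.57 CPM in control libraries (1.46 ± 0.09, edgeR adjusted p = 3.5e-17). The groups did not overlap at either time.

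Atf3, a stress-induced factor known to restrain Toll-like receptor responses in macrophages, changed direction with time. At 4 h it was at 690, 716 and 607 CPM with LPS and at 221, 201 and 193 CPM in control libraries, a change of 1.71 ± 0.07 (edgeR adjusted p = 1.1e-20). By 24 h it was at 205, 198 and 182 CPM with LPS and at 492, 414 and 487 CPM in control libraries, a change of -1.25 ± 0.07 (edgeR adjusted p = 9.6e-17). The difference between the 2 changes was -2.96 ± 0.1 (edgeR adjusted p = 1.4e-22). The libraries of the groups did not overlap, and the control level itself was higher at 24 h.

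On library totals alone, the 4 h changes of Fosl2, Jund and Atf3 with LPS were 0.76, 0.73 and 0.94, each still called higher, and that of Jun was -1.43. At 24 h, LPS was called for 9 members, 4 higher and 5 lower, against 60.4% of all tested genes, and 3 were at least 2-fold higher and 3 at least 2-fold lower, against 10.3% and 14%. The median change of the members was -0.08 and that of all tested genes -0.02. Between the times, the LPS change differed for 8 of the 10 members, against 61.3% of all tested genes (30.8% higher and 30.5% lower, or 51.3% and 17.2% on library totals alone). It was lower at 24 h than at 4 h for Junb (-2.54 ± 0.13), Batf (-2.53 ± 0.21), Jdp2 (-1.98 ± 0.11), Jund (-1.97 ± 0.11) and Atf3. It was higher at 24 h for Fosb (3.93 ± 0.89), Fosl2 (0.37 ± 0.13) and Jun (0.33 ± 0.11), all with edgeR adjusted p of at most 0.012. For Fos the difference was -0.35 ± 0.16 (edgeR adjusted p = 0.067), and it was called without control replicate 2 (-0.49, edgeR adjusted p = 0.0013) or LPS replicate 2 (-0.42, edgeR adjusted p = 0.045) of 24 h.

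The control cultures themselves differed between the times for 9 of the 10 members, against 60.9% of all tested genes (30.6% higher and 30.4% lower). At 24 h, set against 4 h, Jund (1.35 ± 0.08), Atf3 (1.18 ± 0.07) and Batf (1.13 ± 0.19) were higher. Fosb (-3.08 ± 0.39), Fosl1 (-2.89 ± 0.77), Fos (-1.25 ± 0.1), Jdp2 (-0.99 ± 0.09), Fosl2 (-0.51 ± 0.09) and Junb (-0.51 ± 0.09) were lower, with edgeR adjusted p of at most 0.0015 for each of the 9. All 5 Fosl1 counts of the 24 h control libraries were in replicate 1, and without it the fitted change was -6.61 (edgeR adjusted p = 8.4e-05), against libraries at 0. Jun was at 127 ± 7.53 CPM at 24 h and 137 ± 8.74 CPM at 4 h (SD, n = 3 each; -0.1 ± 0.07, edgeR adjusted p = 0.24). An LPS or dexamethasone change at 24 h is therefore measured against a control that had moved.

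**Figure D2:**
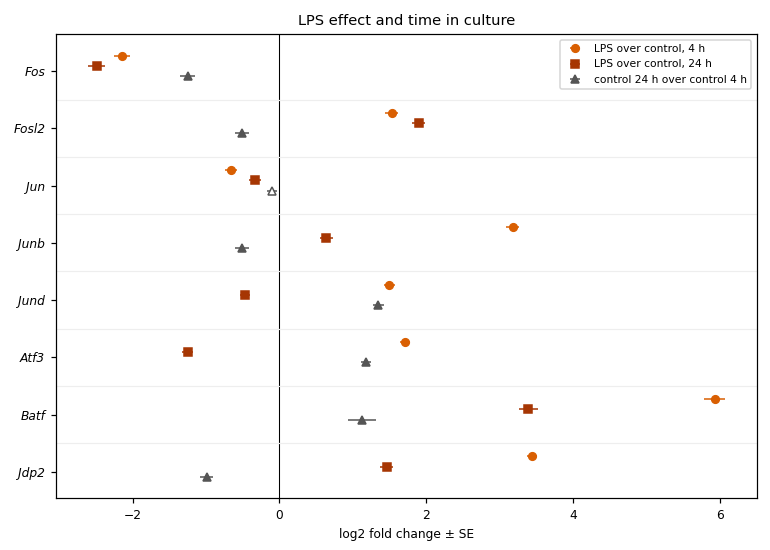
Log2 fold change ± SE of 8 AP-1 genes for LPS over control at 4 h (circles) and 24 h (squares), and for control at 24 h over control at 4 h (triangles). Filled symbols are called at adjusted p under 0.05. Atf3 and Jund lie above 0 for LPS at 4 h and below 0 at 24 h, and Batf lies furthest right at both times.

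Dexamethasone lowered Atf3 and raised Jdp2 in all 4 settings, with and without LPS and at 4 h and 24 h, without overlap of libraries in any of them. Junb was also called lower in all 4, and Fosb, with few counts, in 3 of them, of which those at 24 h were lost when single libraries were left out. How many of all tested genes moved the same way, or without overlap, in all 4 settings was not counted. The shares below are per comparison. Dexamethasone plus LPS against LPS gave 8 called members at 4 h (2 higher and 6 lower), against 49.3% of all tested genes (23.9% and 25.4%). It gave 9 at 24 h (4 higher and 5 lower), against 43.7% (21% and 22.6%). Dexamethasone alone against control gave 7 at 4 h (3 higher and 4 lower), against 41.4% (17.6% and 23.7%), and 8 at 24 h (3 higher and 5 lower), against 48.4% (21.9% and 26.5%). The last of these counts was 5 without dexamethasone replicate 3 of 24 h. Changes of at least 2-fold were fewer. They numbered 1 higher and 3 lower with dexamethasone plus LPS at 4 h (6.17% and 7.27% of all tested genes), and 2 and 2 at 24 h (6.68% and 5.78%). With dexamethasone alone they numbered 1 and 2 at 4 h (4.98% and 5.61%), and 1 and 3 at 24 h (4.78% and 9.18%). The members' medians were -0.81 and -0.73 with LPS and -0.24 and -0.75 without, at 4 h and 24 h in each case, while the medians of all tested genes lay between -0.04 and 0. The change with dexamethasone under LPS differed between 24 h and 4 h for 5 members, against 38.8% of all tested genes (19% higher and 19.8% lower, or 12.9% and 32.1% on library totals alone, where 3 members were called and Fosl2 and Jund were not). The change with dexamethasone in LPS cultures differed from that in cultures without LPS for 5 members at 4 h, against 38.7% (20.8% higher and 17.9% lower, or 35.2% and 10.5% on library totals alone), and for 5 at 24 h, against 38.2% (20.5% higher and 17.7% lower). The comparisons share libraries with those of LPS against control, so the values are set side by side and not correlated.

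Atf3 was the member that dexamethasone lowered most among those above 1 CPM in every group. With dexamethasone plus LPS at 4 h it was at 115, 127 and 123 CPM, against 690, 716 and 607 CPM with LPS (-2.47 ± 0.07, 5.53-fold lower, edgeR adjusted p = 2.1e-23). Its 24 h levels were 19.2, 23.4 and 20.3 CPM, against 205, 198 and 182 CPM with LPS (-3.22 ± 0.08, 9.31-fold lower, edgeR adjusted p = 4e-25). The libraries with both agents at 4 h lay below even the control libraries of that time.
Without LPS, Atf3 was at 46, 40.6 and 42.6 CPM with dexamethasone at 4 h, against 221, 201 and 193 CPM in control libraries (-2.25 ± 0.08, edgeR adjusted p = 4.8e-22). In the 24 h libraries it was at 94.4, 95.1 and 97.8 CPM with dexamethasone, against 492, 414 and 487 CPM in control libraries (-2.28 ± 0.07, edgeR adjusted p = 1.2e-22). At 24 h the decrease was larger with LPS than without, by -0.94 ± 0.11 (edgeR adjusted p = 1.1e-08), while at 4 h the difference was -0.21 ± 0.1 (edgeR adjusted p = 0.099). The 4 h difference was called without control replicate 1 (-0.27, edgeR adjusted p = 0.041) or LPS replicate 3 (-0.28, edgeR adjusted p = 0.026), and was 0.02 on library totals alone (edgeR adjusted p = 0.9).

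Jdp2 gave the opposite picture. With dexamethasone plus LPS at 4 h it was at 423, 414 and 434 CPM, against 168, 164 and 148 CPM with LPS (1.4 ± 0.06, 2.65-fold, edgeR adjusted p = 6.1e-21). After 24 h it was at 62.7, 60.3 and 57.1 CPM, against 19.4, 20.8 and 21.1 CPM with LPS (1.56 ± 0.07, 2.94-fold, edgeR adjusted p = 4.5e-20). The group with both agents at 4 h held the highest Jdp2 level of the series.
Without LPS, Jdp2 was at 70.1, 68 and 72.8 CPM with dexamethasone at 4 h, against 14.3, 13.2 and 16.8 CPM in control libraries (2.25 ± 0.07, 4.77-fold, edgeR adjusted p = 7.4e-25). At 24 h it was at 75.5, 72.1 and 68.3 CPM with dexamethasone, against 7.92, 6.81 and 7.57 CPM in control libraries (3.28 ± 0.08, 9.7-fold, edgeR adjusted p = 3.5e-28). The log2 increase was smaller with LPS than without, by -0.85 ± 0.09 at 4 h (edgeR adjusted p = 1.3e-09) and by -1.72 ± 0.11 at 24 h (edgeR adjusted p = 8.2e-16). Gm47863, the gene whose exons overlap Jdp2, averaged at most 5.66 CPM in any group.

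**Figure D3:**
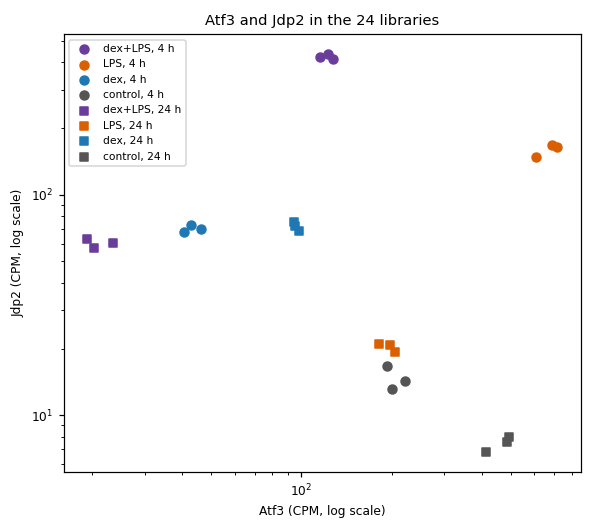
Jdp2 level against Atf3 level in the 24 libraries, in CPM on log axes, with circles for 4 h and squares for 24 h and colours for the treatment. Each group of 3 libraries forms its own cluster. At each time the libraries with dexamethasone lie above and to the left of the matching libraries without it.

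Fos was lower with dexamethasone in 3 settings and higher in the fourth. With dexamethasone plus LPS at 4 h it was at 24.4, 34.3 and 27.7 CPM, against 49.7, 44.5 and 44.1 CPM with LPS (-0.68 ± 0.12, edgeR adjusted p = 4.7e-05). By 24 h it was at 33.7, 30 and 28.4 CPM, against 14.9, 16.7 and 13.9 CPM with LPS, an increase of 1.02 ± 0.13 (2.02-fold, edgeR adjusted p = 8.4e-07). The groups were apart both times, on opposite sides.
Without LPS, Fos was at 128, 132 and 138 CPM with dexamethasone at 4 h, against 211, 196 and 202 CPM in control libraries (-0.62 ± 0.1, edgeR adjusted p = 2.5e-05). Its 24 h levels were 31.5, 28.5 and 27.2 CPM with dexamethasone, against 98.4, 68.8 and 89 CPM in control libraries (-1.55 ± 0.11, edgeR adjusted p = 5.1e-11). The dexamethasone change under LPS differed between 24 h and 4 h by 1.7 ± 0.18 (edgeR adjusted p = 5.5e-08), and at 24 h it differed between cultures with and without LPS by 2.57 ± 0.17 (edgeR adjusted p = 2.4e-11). At 24 h the libraries with dexamethasone, with LPS (28.4 to 33.7 CPM) or without (27.2 to 31.5 CPM), overlapped each other.

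Fosl2 fell with dexamethasone under LPS. It was at 55.5, 65 and 66.2 CPM with both agents at 4 h, against 147, 153 and 177 CPM with LPS (-1.35 ± 0.09, edgeR adjusted p = 3.8e-13), and the group with both agents lay near the control level of 55.1 ± 1.61 CPM (SD, n = 3). In the 24 h libraries it was at 83.1, 76.2 and 75.5 CPM, against 147, 153 and 132 CPM with LPS (-0.88 ± 0.09, edgeR adjusted p = 1.8e-09). Without LPS it was at 51.1 ± 4.38 CPM with dexamethasone and 55.1 ± 1.61 CPM in control libraries at 4 h (-0.11 ± 0.09, edgeR adjusted p = 0.37). After 24 h it was at 45.2 ± 1.56 and 38.6 ± 5.85 CPM (SD, n = 3 each; 0.23 ± 0.09, edgeR adjusted p = 0.043), a call that was lost without control replicate 2 (0.11) or any of the dexamethasone replicates 1 (0.25), 2 (0.24) and 3 (0.2), with edgeR adjusted p of 0.063 to 0.34. The dexamethasone change with LPS differed from that without by -1.25 ± 0.13 at 4 h and by -1.11 ± 0.13 at 24 h (edgeR adjusted p = 5.4e-09 and 4.3e-08).

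Fosb fell with dexamethasone alone at 4 h, to 25 counts over 3 libraries, against 425 counts in the control libraries (-3.9 ± 0.42, edgeR adjusted p = 8.6e-10, or -4.91 without dexamethasone replicate 2). With dexamethasone plus LPS it had 3 counts at 4 h, against 7 with LPS, a ratio of 0.419 (95% counting interval 0.0699 to 1.84). Fosb had 1 count at 24 h, against 15 with LPS, a ratio of 0.0707 (0.00168 to 0.459), which was called lower (edgeR adjusted p = 0.015) but not without LPS replicate 1 or dexamethasone plus LPS replicate 1 or 2 (log2 changes of -2.98, -2.98 and -2.97, edgeR adjusted p of 0.057 to 0.076), while the fitted value was -5.42 without dexamethasone plus LPS replicate 3, which held the 1 count. With dexamethasone alone at 24 h, 17 counts stood against 45 in control libraries, a change that was -1.39 ± 0.54 (edgeR adjusted p = 0.034) and was lost without control replicate 1 (-1.2) or 2 (-1.41) or dexamethasone replicate 1 (-1.29) or 3 (-1.3), with edgeR adjusted p of 0.058 to 0.12. Fosl1 was not called for dexamethasone in any setting. With dexamethasone alone at 4 h it had 30 counts, against 43 in control libraries (-0.38 ± 0.57, edgeR adjusted p = 0.65), and with dexamethasone plus LPS at 4 h 14 counts, against 9 with LPS (0.58 ± 0.82, edgeR adjusted p = 0.59). At 24 h the ratios were 0.398 (0.0379 to 2.43) for dexamethasone over control and 0.212 (0.00448 to 1.89) for dexamethasone plus LPS over LPS. The intervals cover counting error only.

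Among the Jun genes, Junb was lower with dexamethasone in all 4 settings and Jun was not lower in any. Junb was at 721, 673 and 787 CPM with dexamethasone plus LPS at 4 h, against 1606, 1698 and 1477 CPM with LPS (-1.13 ± 0.09, edgeR adjusted p = 1e-10). At 24 h it was at 108, 107 and 107 CPM, against 205, 202 and 172 CPM with LPS (-0.85 ± 0.09, edgeR adjusted p = 4e-08). Both pairs were apart.
Without LPS, Junb was at 109, 126 and 116 CPM with dexamethasone at 4 h, against 175, 184 and 169 CPM in control libraries (-0.59 ± 0.09, edgeR adjusted p = 8.9e-06). By 24 h it was at 81.3, 69.7 and 77.8 CPM with dexamethasone, against 140, 103 and 129 CPM in control libraries (-0.7 ± 0.09, edgeR adjusted p = 9.1e-07). Even with both agents at 4 h, Junb stayed well above the control libraries.

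Jun was at 115, 107 and 98.8 CPM with dexamethasone plus LPS at 4 h, against 83.2, 99 and 76.6 CPM with LPS, and the highest LPS library was just above the lowest library with both agents (0.31 ± 0.08, edgeR adjusted p = 0.0014). Its 24 h levels were 139, 128 and 125 CPM, against 104, 108 and 93 CPM with LPS (0.36 ± 0.08, edgeR adjusted p = 0.00019). With dexamethasone alone at 4 h it was at 197, 196 and 190 CPM, against 138, 127 and 145 CPM in control libraries (0.51 ± 0.07, edgeR adjusted p = 1.1e-06), the highest Jun level of the series. In the 24 h libraries it was at 130 ± 9.84 CPM with dexamethasone and 127 ± 7.53 CPM in control libraries (SD, n = 3 each; 0.03 ± 0.07, edgeR adjusted p = 0.82).

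Jund fell with dexamethasone under LPS, to 40.1, 38.4 and 37.8 CPM at 4 h, against 72, 74.9 and 76.9 CPM with LPS (-0.94 ± 0.08, edgeR adjusted p = 6.9e-13). After 24 h it was at 30, 29.2 and 35.3 CPM, against 52.2, 48.8 and 44.4 CPM with LPS (-0.62 ± 0.08, edgeR adjusted p = 2.5e-08). Without LPS it was at 22, 27.8 and 26.6 CPM with dexamethasone at 4 h, against 25.5, 27.3 and 26.1 CPM in control libraries, and the groups overlapped (-0.05 ± 0.08, edgeR adjusted p = 0.7). At 24 h it was at 41.5, 37 and 37.1 CPM with dexamethasone, against 68.1, 64.2 and 69 CPM in control libraries (-0.8 ± 0.08, edgeR adjusted p = 2.3e-11), without overlap.

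Batf moved little with dexamethasone compared with its LPS change. It was at 93.2, 100 and 106 CPM with dexamethasone plus LPS at 4 h, against 126, 113 and 116 CPM with LPS (-0.25 ± 0.09, edgeR adjusted p = 0.025), a call that was lost on library totals alone (-0.02, edgeR adjusted p = 0.85) and without LPS replicate 1 (-0.2) or dexamethasone plus LPS replicate 1 (-0.2) or 2 (-0.25), with edgeR adjusted p of 0.052 to 0.12. Batf was higher at 24 h, at 59.8, 62.1 and 67.3 CPM, against 43.6, 42.2 and 47.9 CPM with LPS (0.5 ± 0.1, edgeR adjusted p = 6e-05). The groups did not overlap at either time. With dexamethasone alone it was at 2.27, 3.45 and 2.88 CPM at 4 h, against 1.37, 1.57 and 3.08 CPM in control libraries, which overlapped (0.57 ± 0.21, edgeR adjusted p = 0.028). That call was lost without control replicate 1 (0.31) or 2 (0.46) or dexamethasone replicate 2 (0.42) or 3 (0.57), with edgeR adjusted p of 0.063 to 0.28, and when only those 2 groups were fitted (edgeR adjusted p = 0.1), and the change was 0.98 without control replicate 3. By 24 h it was at 5.22, 6.07 and 5.58 CPM, against 3.58, 4.54 and 4.57 CPM in control libraries (0.41 ± 0.16, edgeR adjusted p = 0.036), a call lost without control replicate 1 (0.3) or dexamethasone replicate 2 (0.35) or 3 (0.41), with edgeR adjusted p of 0.071 to 0.17.

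**Figure D4:**
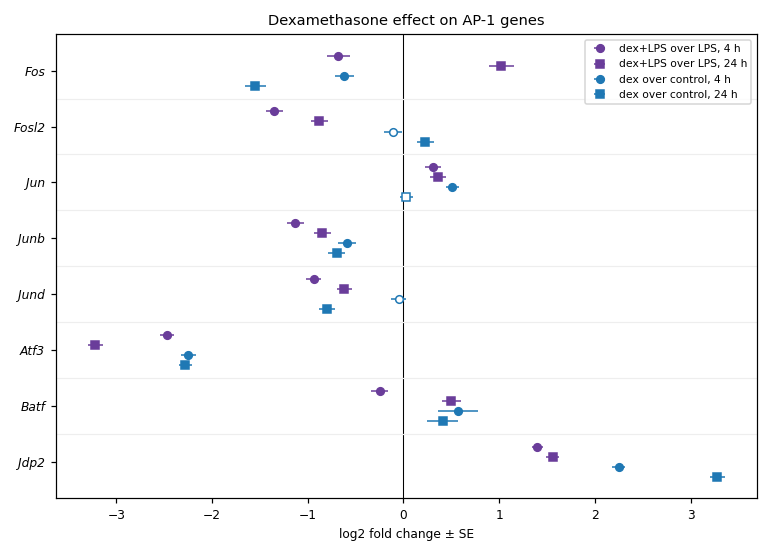
Log2 fold change ± SE of 8 AP-1 genes for dexamethasone plus LPS over LPS and for dexamethasone over control, at 4 h (circles) and 24 h (squares). Filled symbols are called at adjusted p under 0.05. All 4 symbols lie left of 0 for Atf3 and Junb and right of 0 for Jdp2, and Fos has 1 symbol on the right, that of dexamethasone plus LPS at 24 h.

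Per exon length, the make-up of the AP-1 transcripts differed between the groups. The sums and shares here use full exon lengths. They understate Jund, with 52.6% of its exon bases giving no counts, and so overstate the shares of genes without shared exons, such as Atf3. The 10 genes summed to 716 ± 29.1 RPKM with dexamethasone plus LPS, 1271 ± 79.7 with LPS, 244 ± 4.94 with dexamethasone and 332 ± 8.54 in control libraries at 4 h (SD, n = 3 each). At 24 h the sums were 210 ± 2.02, 298 ± 17.2, 196 ± 7.04 and 397 ± 36.1 RPKM for the same treatments. LPS libraries at 4 h thus held the largest sum, and control libraries held the largest at 24 h.
Atf3 made up 7.88 ± 0.528% of the sum with dexamethasone plus LPS, 24.5 ± 0.571% with LPS, 8.22 ± 0.686% with dexamethasone and 28.7 ± 1.3% in control libraries at 4 h. At 24 h its share was 4.63 ± 0.531%, 30.4 ± 0.33%, 22.7 ± 1.16% and 54.4 ± 0.694%. Jdp2 made up 27.6 ± 0.502% with both agents, 5.86 ± 0.188% with LPS, 13.4 ± 0.577% with dexamethasone and 2.07 ± 0.278% in control libraries at 4 h. Its shares at 24 h were 13.3 ± 0.606%, 3.2 ± 0.309%, 17.1 ± 0.395% and 0.873 ± 0.0158% (all SD, n = 3). The order of these 2 genes was thus reversed at 4 h, when Jdp2 stood above Atf3 per length with dexamethasone, whether or not LPS was added, and below it without dexamethasone. At 24 h Jdp2 also stood above Atf3 with both agents (27.9 and 9.72 RPKM). It stood below Atf3 with dexamethasone alone (33.5 and 44.5 RPKM) and without dexamethasone.
The 4 Fos genes together made up 2.85 ± 0.274% with LPS and 28.1 ± 0.413% in control libraries at 4 h, while Junb alone made up 54.5 ± 0.595% and 23.1 ± 1.17%. With both agents at 4 h Junb still held 44.1 ± 1.79%.

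**Figure D5:**
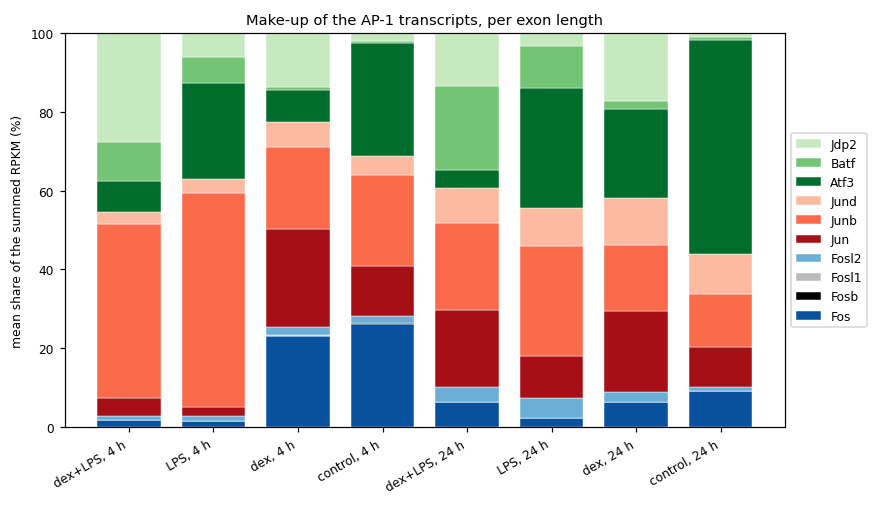
Mean share of each of the 10 AP-1 genes in their summed RPKM, in percent, for each treatment at 4 h and 24 h (3 libraries each). Blues, grey and black are Fos genes, reds Jun genes and greens Atf3, Batf and Jdp2. The Atf3 share is 54.4% in control libraries at 24 h and 4.63% with dexamethasone plus LPS at that time. Full exon lengths are used, which understates Jund.

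In order of RPKM at 4 h, with both agents Junb (316 ± 25.1) was followed by Jdp2 (197 ± 4.59), Batf (70.9 ± 4.43) and Atf3 (56.4 ± 2.79, SD, n = 3 for each mean of RPKM here). With LPS at 4 h the order was Junb (693 ± 48.2), Atf3 (311 ± 26.4), Batf (84 ± 4.94), Jdp2 (74.5 ± 4.94), Jund (44.8 ± 1.48), Jun (27.1 ± 3.61), Fos (19.6 ± 1.32) and Fosl2 (16.4 ± 1.67), none overlapping the next, with Fosl1 and Fosb overlapping at the end. With dexamethasone at 4 h Jun came first (61 ± 1.25), then Fos (56.3 ± 2.03) and Junb (50.8 ± 3.62), which overlapped, and Jdp2 (32.7 ± 1.12). Control libraries at 4 h ran Atf3 (95.3 ± 6.66) and Fos (86.3 ± 3.37), whose libraries overlapped, then Junb (76.5 ± 3.16), Jun (42.9 ± 2.74), Jund (15.8 ± 0.559), Jdp2 (6.88 ± 0.853), Fosl2 (5.69 ± 0.167), Batf (1.43 ± 0.666) and Fosb (0.875 ± 0.189), which overlapped, and Fosl1 (0.281 ± 0.0122).
At 24 h Atf3 came first with LPS (90.5 ± 5.66, overlapping Junb at 83.9 ± 8), with dexamethasone (44.5 ± 0.828) and in control libraries (216 ± 20.2), but with both agents (9.72 ± 1.02) 6 members stood above it. There Junb (46.7 ± 0.155), Batf (44.9 ± 2.73) and Jun (41 ± 2.34) led, each overlapping the next. Jund depends on the length used, since 52.6% of its exon bases gave no counts. Over the unshared bases it stood at 94.5 RPKM with LPS and 33.3 in control libraries at 4 h, and at 61.4 and 85 at 24 h, a setting added after the data were seen. With LPS at 4 h that is above the Batf mean of 84, so the place of Jund in the orders above is uncertain. The choice of length leaves its fold changes as they are.

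The genes with the group means most like those of a member over the 8 groups were picked by Pearson's r of mean log2 CPM among 11607 tested genes with a symbol and a range of at least 1 log2 unit. With only 8 points and that many genes, high values are to be found for many patterns. For Fos they were Mcm7 (r = 0.995), a subunit of the replicative helicase, and Fam111a (0.985). For Junb they were 1700052K11Rik and Siglecg (0.995 each), and for Batf Has1 and Pfkfb3 (0.99 each). For Jdp2 they were Gm47863 (0.96), which shares exon bases with it, and Lnpep (0.959). For Atf3, the closest was Pkp4 (0.952), for Jun Add3 (0.982), for Jund Litaf (0.972), for Fosl2 Htr7 (0.957), for Fosl1 Prmt5 (0.982) and for Fosb Gnb1l (0.955). The group means of Fosl1 and Fosb rest on few counts in nearly every group, so their likenesses are the least certain.

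Genes around AP-1 were counted in lists, to be read against the shares of all tested genes called. The lists were chosen with earlier results of these data known, so the counts are a description and not an independent test. These were 34.2% higher and 38.8% lower for LPS at 4 h, and 29.7% and 30.6% at 24 h. For dexamethasone plus LPS they were 23.9% and 25.4% at 4 h and 21% and 22.6% at 24 h, and for dexamethasone alone 17.6% and 23.7%, and 21.9% and 26.5%. Of 13 brakes on AP-1 and the MAP kinases that feed it, dexamethasone plus LPS raised 3 and lowered 7 at 4 h and raised 3 and lowered 6 at 24 h, set against LPS, with list medians of -0.53 and -0.31 (0 for all tested genes at both times). Dexamethasone alone raised 4 and lowered 5 at 4 h and raised 2 and lowered 10 at 24 h (medians 0.05 and -0.9, against -0.04 and 0). Tsc22d3, which encodes GILZ, a glucocorticoid-induced protein known to bind Fos and Jun, was at 269 ± 15.2 CPM with both agents and 1.8 ± 0.285 CPM with LPS at 4 h (SD, n = 3 each; 7.21 ± 0.1, edgeR adjusted p = 1.7e-35). Dusp1, a phosphatase that switches off p38 and JNK, was at 1054 ± 74.9 CPM with both agents and 938 ± 29 CPM with LPS at 4 h (0.17 ± 0.06, edgeR adjusted p = 0.031). It was at 352 ± 43 and 68.6 ± 6.1 CPM at 24 h (2.36 ± 0.07, edgeR adjusted p = 4.4e-24). Dusp4, another such phosphatase, fell at 24 h, to 2.46 ± 0.336 CPM with both agents, against 15.5 ± 3.91 CPM with LPS (-2.66 ± 0.18, edgeR adjusted p = 1.8e-13). With LPS against control at 4 h, 6 of the 13 rose and 4 fell (median 0.45, or -0.32 with 5 and 5 on library totals alone), led by Dusp2 (7.12 ± 0.11), while Tsc22d3 fell (-4.36 ± 0.11). At 24 h, LPS raised 3 and lowered 8 of the 13 (median -1).

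Of 26 genes of the MAP kinase cascade and the serum response factors, LPS against control raised 13 and lowered 7 at 4 h and raised 15 and lowered 5 at 24 h (medians 0.17 and 0.19, against -0.07 and -0.02 for all tested genes). On library totals alone these counts were 7 and 17 at 4 h and 11 and 7 at 24 h (medians -0.6 and -0.01), so the direction of the list depends on the scaling. Map3k8, the kinase that links LPS to ERK, was at 234 ± 10.7 CPM with LPS and 10.4 ± 1.93 CPM in control libraries at 4 h (SD, n = 3 each; 4.47 ± 0.11, edgeR adjusted p = 5.8e-22). Mapkapk2, which acts below p38, was at 3533 ± 158 CPM with LPS and 233 ± 3.61 CPM in control libraries at 4 h (3.92 ± 0.06, edgeR adjusted p = 3.1e-35). Dexamethasone plus LPS against LPS raised 7 and lowered 13 at 4 h and raised 4 and lowered 11 at 24 h (medians -0.16 and -0.11), and on library totals alone the 4 h counts were 11 and 8 (median 0.06). Dexamethasone alone raised 3 and lowered 9 at 4 h and raised 8 and lowered 7 at 24 h (medians -0.11 and 0.02).

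Of 15 other bZIP genes that can pair with or resemble AP-1 proteins, LPS raised 10 and lowered 2 at 4 h and raised 7 and lowered 4 at 24 h (medians 0.44 and 0.18), or 6 and 8 and then 6 and 5 on library totals alone (medians -0.33 and -0.02). Batf2, a relative of Batf, was at 157 ± 13.2 CPM with LPS and 2.14 ± 0.466 CPM in control libraries at 4 h (SD, n = 3 each; 6.24 ± 0.14, edgeR adjusted p = 9.4e-27). Dexamethasone plus LPS against LPS raised 2 and lowered 7 at 4 h and raised 1 and lowered 9 at 24 h (medians -0.12 and -0.22), with 6 and 7 at 4 h on library totals alone (median 0.1). Dexamethasone alone raised 4 and lowered 6 at 4 h and raised 6 and lowered 6 at 24 h (medians -0.03 and 0.06). Nfil3, a repressor of this family, was at 37.3 ± 1.26 CPM with dexamethasone and 6.88 ± 0.93 CPM in control libraries at 4 h (2.42 ± 0.1, edgeR adjusted p = 2.6e-20). With LPS it stood the other way round, at 36.4 ± 4.91 CPM with both agents and 117 ± 1.78 CPM with LPS at 4 h, and the dexamethasone change with LPS differed from that without by -4.11 ± 0.13 (edgeR adjusted p = 4.2e-23).

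Of 14 other immediate early genes, dexamethasone plus LPS against LPS raised 2 and lowered 10 at 4 h and raised 4 and lowered 7 at 24 h (medians -0.82 and -0.6, against 0 for all tested genes at both times). Egr1, like Fos a classical early response gene, was at 0.503 ± 0.162 CPM with both agents and 12 ± 2.71 CPM with LPS at 24 h (SD, n = 3 each; -4.56 ± 0.41, edgeR adjusted p = 3.7e-09), when Fos was higher with both agents. Klf4 rose with both agents, to 76 ± 4.36 CPM at 4 h, against 8.7 ± 1.06 CPM with LPS (3.13 ± 0.13, edgeR adjusted p = 5.2e-17). LPS against control raised 7 and lowered 4 at 4 h and raised 3 and lowered 9 at 24 h (medians 0.42 and -0.52), or 5 and 7 at 4 h on library totals alone (median -0.35). Dexamethasone alone raised 5 and lowered 7 at 4 h and raised 3 and lowered 6 at 24 h (medians -0.31 and -0.81).

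Of 13 genes widely used as AP-1 targets 12 could be tested. LPS against control raised 10 and lowered 2 at 4 h and raised 6 and lowered 5 at 24 h (medians 3.31 and 0.41, against -0.07 and -0.02 for all tested genes). Dexamethasone plus LPS against LPS raised 1 and lowered 10 at 4 h and raised 2 and lowered 7 at 24 h (medians -1.24 and -0.78). Mmp13, a collagenase, was at 507 ± 43.7 CPM with both agents and 4094 ± 358 CPM with LPS at 4 h (SD, n = 3 each; -3.01 ± 0.08, edgeR adjusted p = 3.5e-21). Ptgs2, which encodes cyclooxygenase-2, was at 934 ± 86.1 CPM with both agents and 6125 ± 128 CPM with LPS at 4 h (-2.71 ± 0.11, edgeR adjusted p = 7.5e-14). Dexamethasone alone raised 1 and lowered 8 at 4 h and raised 0 and lowered 10 at 24 h (medians -1.33 and -1.87). Plau, the urokinase gene, was at 60.3 ± 8.97 CPM with dexamethasone and 1288 ± 78.7 CPM in control libraries at 4 h (-4.42 ± 0.25, edgeR adjusted p = 7.8e-11), and with LPS it also fell, to 9.72 ± 3.23 CPM (-7.03 ± 0.3, edgeR adjusted p = 2.8e-13). Spp1, which encodes osteopontin, rose with both agents, to 5254 ± 309 CPM at 4 h, against 3422 ± 30.8 CPM with LPS (0.62 ± 0.2, edgeR adjusted p = 0.016). Which of these genes AP-1 proteins bound in these cultures was not measured.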

How the data were processed

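RNA was sequenced from 24 macrophage libraries in 8 groups of 3, set by the treatment and time in the labels. The deposited table holds whole-number counts per gene and the summed exon length of each gene. Per the file headers, featureCounts 2.0.0 counted read pairs without regard to strand over the exons of GENCODE M29 genes, without reads that match several places or overlap several genes. The submitters' processing notes name STAR, with no version, and GRCm38 and mm10. Of the 10 AP-1 genes 0 start where GENCODE M21 (GRCm38) places them, so the table's positions are taken as GRCm39, and the build of the alignment is uncertain. Gene identifiers were matched to symbols of GENCODE M21, which named 52081 of 55357 genes.

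From the counts, edgeR 4.0.16 (R 4.3.3) kept 14985 genes by filterByExpr (14601 with counts fell below it), applied TMM scaling and fitted one robust quasi-likelihood model with a mean per group over all 24 libraries (16 residual degrees of freedom, biological coefficient of variation 6.29%). P-values are two-sided and Benjamini-Hochberg adjusted over all tested genes, in each of 11 comparisons. The SE is the log2 change divided by the root of F. The test was tried on simulated data for LPS against control at 4 h only, with as many genes raised as lowered. That simulation does not cover the scaling shift of the real data or the differences between 2 changes. Alternatives were scaling on library totals alone, no filter on low counts, a replicate block, DESeq2 1.42.0, the groups of each comparison alone, and leaving out each library. Between replicates the chi-square per gene was 3.21 to 8.94, so all libraries were kept as separate replicates. The members and the gene lists were chosen with earlier results of these data known. Named genes beyond the members are, per list and comparison, up to 2 called genes with the largest rise and up to 2 with the largest fall at a mean of at least 5 CPM, and for each member the 2 genes most like it, of which the text names a part.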

Additional observations from a re-analysis of the deposited data

Results flagged for a closer look

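Each result here is a difference between 2 changes, tested as such in edgeR, that passed an adjusted p of 0.05. The values are log2 differences ± SE, and no explanation was tested.

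The LPS change was smaller or turned to a decrease at 24 h relative to 4 h for Atf3 (-2.96 ± 0.1), Junb (-2.54 ± 0.13), Batf (-2.53 ± 0.21), Jdp2 (-1.98 ± 0.11) and Jund (-1.97 ± 0.11). It lay higher at 24 h for Fosb (3.93 ± 0.89), Fosl2 (0.37 ± 0.13) and Jun (0.33 ± 0.11). The decrease of Jun with LPS was thus smaller at 24 h, and the increase of Fosl2 larger. Fosb had 7 counts with LPS and 425 in control libraries at 4 h, and 15 and 45 counts at 24 h. Its control level was thus itself far lower at 24 h, which leaves less room for a decrease. How far this sets the Fosb difference was not tested.

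The dexamethasone change under LPS lay higher at 24 h than at 4 h for Fos (1.7 ± 0.18), Batf (0.75 ± 0.13), Fosl2 (0.47 ± 0.12) and Jund (0.32 ± 0.11), and lower for Atf3 (-0.75 ± 0.11). Fos and Batf were lower with dexamethasone at 4 h and higher at 24 h. The Batf decrease at 4 h was itself a call that depended on the scaling. On library totals alone the differences of Fosl2 (0.29) and Jund (0.13) were not called, and that of Jund was lost without LPS replicate 3 (0.26) or dexamethasone plus LPS replicate 3 (0.24) of 24 h.

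With LPS the dexamethasone change at 4 h lay lower than without LPS for Fosl2 (-1.25 ± 0.13), Jund (-0.9 ± 0.11), Jdp2 (-0.85 ± 0.09), Batf (-0.82 ± 0.23) and Junb (-0.54 ± 0.12). The Batf difference was -0.55 without control replicate 1, with an edgeR adjusted p of 0.056.

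At 24 h it lay higher with LPS for Fos (2.57 ± 0.17) and Jun (0.34 ± 0.11), and lower for Jdp2 (-1.72 ± 0.11), Fosl2 (-1.11 ± 0.13) and Atf3 (-0.94 ± 0.11). For Fos the dexamethasone change was an increase with LPS and a decrease without it.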

How the results depend on the processing

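Of 110 tests on members, 83 were called, and 72 of these kept their call and direction in every alternative. No called change turned direction. Libraries with the same replicate number showed no shared deviation from their group means over all tested genes (84 pairs, r of -0.044 to 0.046). That does not settle whether equal numbers mark a shared mouse or culture, which the labels do not give. With the replicate block the called members numbered 10, 9, 7, 7, 8, 9 and 9 for LPS at 4 h and 24 h, dexamethasone at 4 h and 24 h, dexamethasone plus LPS at 4 h and 24 h, and control over time, and the block ended 1 call, Fosl2 for dexamethasone at 24 h (0.23, edgeR adjusted p = 0.058). Of all 14985 tested genes the block called 5095 higher and 5780 lower for LPS at 4 h, and 4437 and 4570 at 24 h. For dexamethasone alone these were 2605 and 3517, and 3239 and 3956. For dexamethasone plus LPS they were 3536 and 3777, and 3126 and 3358, and for control over time 4557 and 4536. On library totals alone, 3 members in place of 5 were called for the dexamethasone change under LPS over time, with Fosl2 (0.29) and Jund (0.13) lost. Uncalled values that changed sign under that scaling were Fosl1 for LPS at 24 h (-0.02), Fos for the LPS change over time (0.22), Jun (-0.13) and Jdp2 (-0.04) for the dexamethasone change under LPS over time, and Fos (0.17), Jun (0.04) and Atf3 (0.02) for dexamethasone with against without LPS at 4 h; the cause was not tested. Leaving out each library gave 5 to 8 called members for dexamethasone at 24 h and moved no other count by over 1.5 times. It turned the sign of uncalled values, with ranges for Fosl1 of -1.79 to 2.54 (dexamethasone, 24 h), -1.31 to 3.89 (LPS, 24 h), -4.45 to 0.75 (dexamethasone with against without LPS, 24 h) and -0.03 to 0.9 (dexamethasone plus LPS, 4 h). The ranges for Fosb were -4.24 to 1.14 (dexamethasone under LPS over time) and -0.67 to 3.87 (dexamethasone with against without LPS, 4 h). For Jun they were -0.02 to 0.09 (dexamethasone, 24 h) and -0.05 to 0.13 (dexamethasone under LPS over time), for Jund -0.11 to 0.05 (dexamethasone, 4 h) and for Fos -0.21 to 0.04 (dexamethasone with against without LPS, 4 h). Leaving out a library also made calls of uncalled differences. Beside those of Fos and Atf3 given above, these were Fosl1 for the LPS change over time without control replicate 1 of 24 h (5.59), Junb for the dexamethasone change under LPS over time without LPS replicate 3 (0.34) or dexamethasone plus LPS replicate 3 (0.35) of 4 h, and, for dexamethasone with against without LPS at 4 h, Jun without LPS replicate 3 (-0.28) and Fosb without dexamethasone replicate 2 (3.73). The LPS change of Fosb over time was 5.08 without LPS replicate 2 of 4 h. The LPS change of Fos over time became a call without the filter (-0.32) and with DESeq2 (-0.4), and the dexamethasone change of Junb under LPS over time without the filter (0.27), with DESeq2 (0.34) and with the groups of the comparison alone (0.25). Depth limits Fosb and Fosl1, which had 1 to 45 counts over the 3 libraries in every group except Fosb in control libraries at 4 h.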
